A study of Mus musculus with 8 samples.

Results

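The genes described here encode enzymes that write and erase methyl and acetyl groups on histones and DNA, the proteins that read those marks, and the motors that move nucleosomes. They comprise 46 genes chosen by function: DNA methyltransferases and their partners, histone methyltransferases and demethylases, acetyltransferases and deacetylases, Polycomb, heterochromatin protein 1 (HP1), bromodomain and extra-terminal (BET) and chromatin remodelling proteins. Of these, 45 had a probe set annotated to them alone, out of 18193 such genes on the array. Suv39h1, a histone H3K9 methyltransferase gene on the X chromosome, had none, and its expression was not analysed here. Each gene is represented by the probe set with the highest mean log2 value over the 8 arrays.

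Expression was measured in late spermatocytes, which are in meiotic prophase, and in round spermatids, which are haploid and have completed meiosis, on Affymetrix mouse expression arrays. Both cell types came from testes of 4- to 5-week-old male mice on an FVB background, either Hr6b+/+ (wild type) or Hr6b-/- (knockout), and each of the 4 groups has 2 arrays. Hr6b, which the array annotation calls Ube2b, encodes a ubiquitin-conjugating enzyme, and the comparisons ask how its loss changes gene expression before and after the meiotic divisions. Cells were separated by sedimentation at unit gravity and on Percoll, so each fraction holds a minority of other testis cells, and neither the labels nor the methods give the number of mice behind an array.

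In the germ line, chromatin passes from the meiotic state, in which the sex chromosomes are silenced and covered with repressive marks, to a haploid state in which histones are acetylated and later exchanged for transition proteins and protamines. Methylation of DNA and of histone H3 at lysine 9, which HP1 proteins bind, goes with silent chromatin. Polycomb complexes deposit methyl groups on H3 lysine 27 and ubiquitin on histone H2A, whereas acetylation and methylation of H3 at lysines 4 and 79 go with transcription.

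The Ube2b signal fell to 828 ± 6.72 in knockout against 3102 ± 349 in wild type spermatocytes, and to 1006 ± 78.1 against 4606 ± 8.47 in spermatids (mean ± SD, n = 2 arrays, as in all such values; signal is the value on the linear scale). The 2 arrays of a group correlated at r = 0.995 to 0.997 (Pearson, over probe sets, which do not vary independently). The summed signal of 15 spermatid markers was 177180 to 182825 on wild type spermatid arrays and 6221 to 9975 on wild type spermatocyte arrays, whereas that of 15 spermatocyte markers was 69314 to 71631 on wild type spermatocyte arrays and still 46203 to 46921 on wild type spermatid arrays. The knockout spermatocyte arrays stood apart, with a sum of spermatid markers of 26286 to 36197 and 10 of these 15 called higher than in wild type. On knockout spermatid arrays the spermatid markers summed to 225819 to 228836, above wild type, and the spermatocyte markers to 40311 to 43244, below wild type. Of 9 markers of spermatogonia and early spermatocytes, 2 were called higher and 0 lower in knockout than in wild type spermatids. In spermatocytes 0 of these 9 were called higher and 2 lower in the knockout. The part of these germ cell differences in the members' knockout calls was not tested. Of 14 Sertoli cell markers, 12 had a higher mean log2 value in knockout than in wild type spermatids (median log2 difference 0.51, up to 2.17), 4 of them called (Aard, Defb19, Cldn11 and Inha), and their summed signal was 1236 to 1291 against 783 to 876. The defining Sertoli genes Sox9, Wt1 and Gata4 were dim on those arrays and not called, Sox9 with 40.5 ± 1.54 against 39.8 ± 4.63. The median log2 value of expressed probe sets (a signal of 100 or more on at least 4 arrays) was 8.61 to 8.70 on spermatocyte arrays, 8.31 to 8.33 on wild type and 8.10 to 8.18 on knockout spermatid arrays.

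Most of these genes changed between spermatocytes and spermatids, and the falls were the larger group. In wild type, 14 of the 45 were higher in spermatids and 21 were lower at an adjusted p under 0.05 (limma, Benjamini-Hochberg over all probe sets), whereas of all 45037 probe sets 53.3% were called, 26% higher and 27.3% lower. Among the 9989 genes that were expressed by the above criterion 83.1% were called, 37.4% higher and 45.7% lower, so the members' 77.8% was not above that background. The members include Cbx2, Cbx3, Prdm9, Kdm6a and Atrx, which missed this criterion and were called higher in both genotypes. With only expressed probe sets fitted, 40 members remained. Of these, 9 were higher and 21 lower in wild type, and 8 higher and 25 lower in the knockout. The median log2 difference of the members, spermatids minus spermatocytes, was -0.18, against 0.10 over all probe sets and -0.17 over expressed genes. In the knockout, 13 members were higher and 25 lower, 84.4%, against 63% of all probe sets (34.2% higher, 28.7% lower) and 85.7% of expressed genes (35.3% higher, 50.4% lower). Of the members, 13 were higher in spermatids in both genotypes and 21 lower in both. Brd2 was called higher only in wild type, Ring1, Kdm4d, Ep300 and Chd4 were called lower only in the knockout, and 6 were called in neither. The interaction passed for none of those 5 (adjusted p = 0.141, 0.15, 0.0616, 0.207 and 0.521 in that order), so their stage effects were not shown to differ between the genotypes. Markers of other cells moved with the stage too. In wild type, 9 of the 14 Sertoli cell markers were called lower in spermatids, Aard 50.5-fold, Defb19 25.9-fold and Clu 10-fold, and their summed signal was 783 to 876 against 5192 to 6668 in spermatocytes. In wild type 1 was called higher. In the knockout, 3 were higher and 8 lower, with sums of 1236 to 1291 against 5206 to 6676. Peritubular and macrophage markers, 5 of each, went the other way. In wild type spermatids 3 and 2 of them were called higher, in knockout spermatids 5 and 4, and 0 were lower. Of 4 Leydig cell markers, 1 was called lower in each genotype and 1 higher in the knockout. The summed signal of 9 markers of spermatogonia and early spermatocytes was 1596 to 1739 in wild type spermatids and 4701 to 6826 in wild type spermatocytes, with 3 markers called higher and 3 lower. In the knockout 5 of them were called higher in spermatids and 2 lower. The part of all these cells in the members' falls and rises was not tested. In such bulk fractions, fewer cells of a type and less RNA per cell cannot be told apart. The split depends on the scaling: with the arrays shifted to equal medians of expressed probe sets it was 20 higher and 19 lower in wild type and 20 and 17 in the knockout, and with cyclic loess 14 and 18 in wild type and 16 and 20 in the knockout. The equal medians moved the median difference of all probe sets from 0.10 to 0.41 in wild type and from 0.14 to 0.68 in the knockout.

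**Figure D1:**
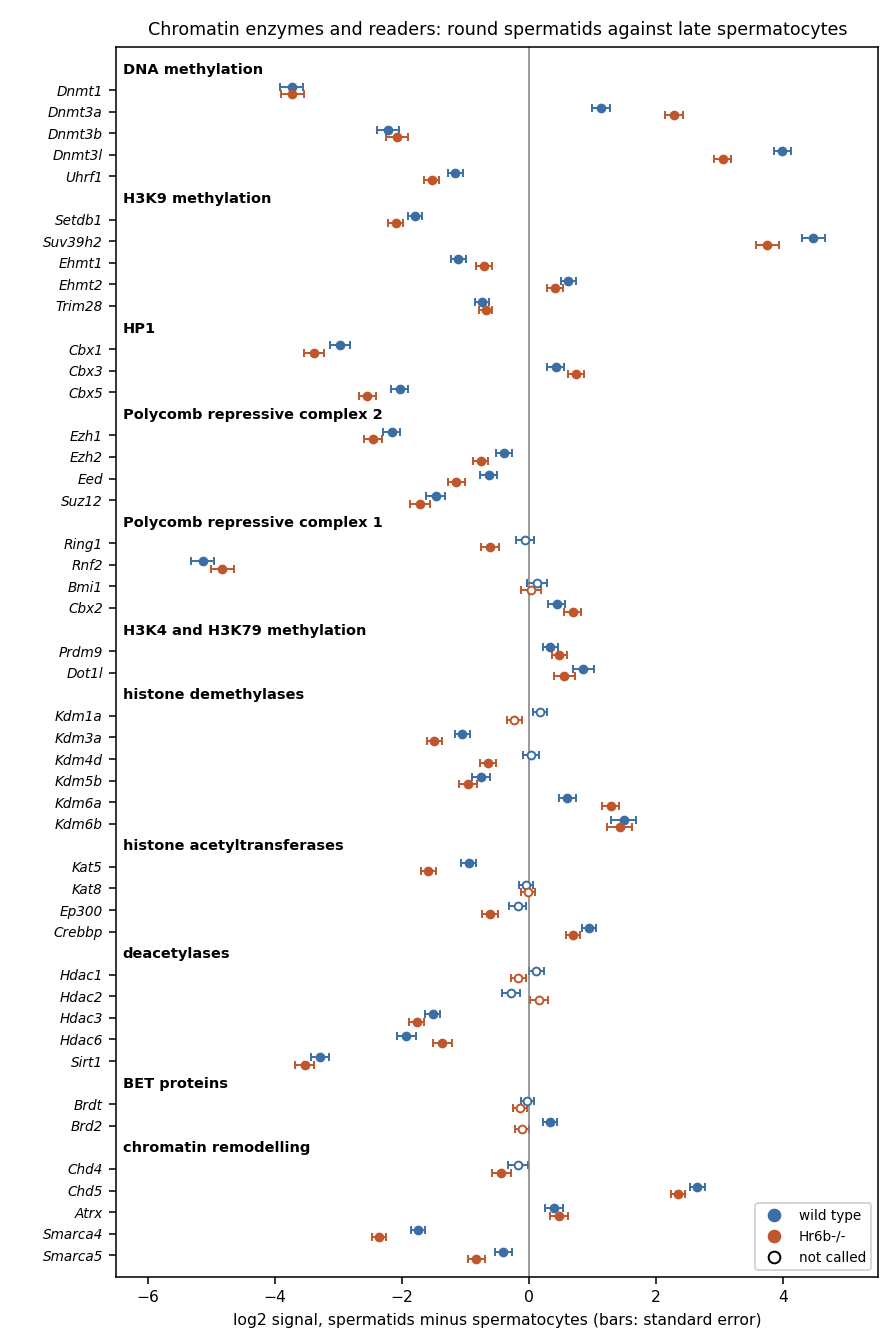
Log2 signal in round spermatids minus that in late spermatocytes for the 45 measured genes, grouped by class, in wild type (blue) and knockout (orange); points are differences of means of 2 arrays, bars are standard errors, and open points were not called. The highest point in wild type is that of Suv39h2 and the lowest that of Rnf2, and 34 genes were called in the same direction in both genotypes.

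The knockout left these genes without a called change in spermatocytes and changed 14 of them in spermatids. In spermatocytes, limma called 0 of 45, against 1.59% of all probe sets and 4.41% of expressed genes, and 10 of 45 had an unadjusted p under 0.05, against 11% of all probe sets. The log2 differences between knockout and wild type spermatocytes ran from -0.50 for Hdac6 to 0.41 for Ezh1, and the median standard error was 0.13. With an intensity trend in the empirical Bayes step 1 gene, Ehmt2, was called higher in knockout spermatocytes. The part of the spermatid markers that were higher on the knockout spermatocyte arrays was not tested. Dnmt3a, Dnmt3l, Suv39h2 and Chd5, which were higher in spermatids, had mean signals of 44.4 to 69.5 in spermatocytes of either genotype, close to or a little above the median of all probe sets there (log2 5.43 to 5.46), and a knockout effect on them would be hard to detect at that level.

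In spermatids, Dnmt3a and Hdac2 were higher in the knockout and 12 members were lower: Dnmt3l, Uhrf1, Suv39h2, Cbx5, Eed, Ring1, Kdm1a, Kdm4d, Kat5, Brd2, Chd5 and Smarca4. These 14 of 45 (31.1%) compare with 14.5% of all probe sets, 4.83% higher and 9.63% lower, and with 28.4% of expressed genes, 7.29% higher and 21.1% lower, so the share was near that of expressed genes. The sets are not alike, since the 45 include Cbx2, Cbx3, Prdm9, Kdm6a and Atrx, which missed the expressed criterion and were not called here. With only expressed probe sets fitted, 16 of the 40 remaining members were called, 2 higher and 14 lower. The median log2 difference over the members was -0.19, against 0.02 over all probe sets and -0.14 over expressed genes. Only Dnmt3a and Dnmt3l differed at least 2-fold. The calls of Dnmt3a, Dnmt3l, Cbx5 and Smarca4 held under each of the 20 alternatives tried, and the other 10 were lost under at least 2. With cyclic loess 6 were called (Dnmt3a and Hdac2 higher, Dnmt3l, Uhrf1, Cbx5 and Smarca4 lower), and with quantile normalization the same 6 and Brd2. With equal medians of expressed probe sets 4 were higher and 5 lower, Cbx3 and Kdm6a being added to the former. The count fell to 4 without replicate 1 of either the wild type or the knockout spermatids, to 6 without replicate 2 of the wild type spermatids, to 7 without replicate 2 of the knockout spermatids and to 9 without either or both of the knockout spermatocyte arrays.

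The difference between the knockout effects in the 2 cell types, tested as an interaction, was called for Dnmt3a and Dnmt3l, 2 of the 45, against 4.6% of all probe sets and 9.36% of expressed genes. A called effect in spermatids without one in spermatocytes was thus not shown to differ between the cell types for the other 12.

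**Figure D2:**
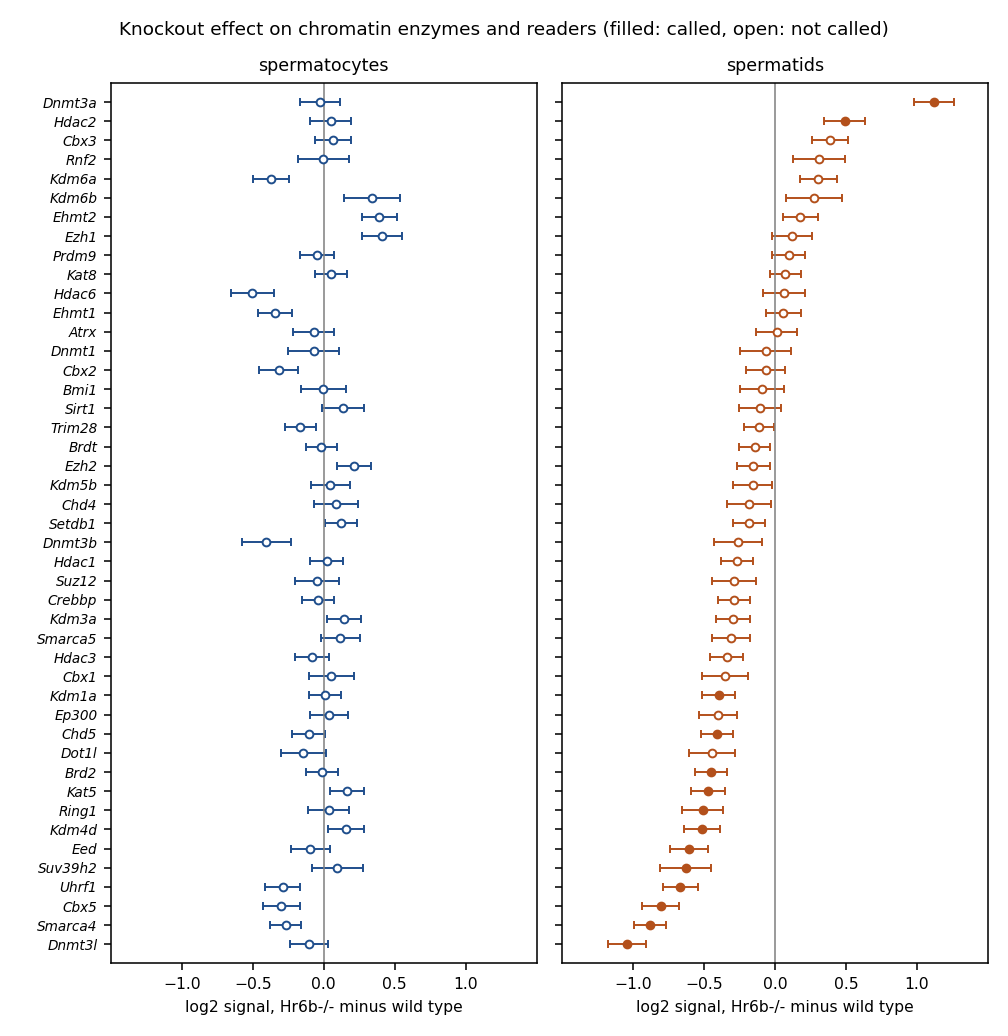
Log2 signal in the knockout minus that in wild type for the 45 measured genes in spermatocytes (left) and spermatids (right), sorted by the value in spermatids; bars are standard errors, filled points were called and open points were not. No point is filled on the left, and on the right 2 genes are called above 0 and 12 below it.

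Among the DNA methylation genes all 5 members changed between the stages in both genotypes: Dnmt1, Uhrf1 and Dnmt3b fell and Dnmt3a and Dnmt3l rose. Of expressed genes, 83.1% were called in either direction in wild type and 85.7% in the knockout. Dnmt1, the maintenance methyltransferase that copies methylation after replication, had signals of 1724 and 1612 in wild type spermatocytes, 1521 and 1653 in knockout spermatocytes, 155 and 101 in wild type spermatids and 112 and 127 in knockout spermatids. All 4 spermatid arrays lay far below the 4 spermatocyte arrays, with no separation by genotype. The fall was 13.3-fold in wild type (log2 difference -3.74, standard error 0.18, adjusted p = 4.05e-08) and 13.3-fold in the knockout. Uhrf1, which brings Dnmt1 to hemimethylated DNA, read 3525 and 3457 in wild type spermatocytes, 2799 and 2913 in knockout spermatocytes, 1707 and 1432 in wild type spermatids and 959 and 1012 in knockout spermatids. Its signal fell by a factor of 2.23 between the stages in wild type, and knockout spermatids were lower again, 1.59-fold below wild type spermatids (log2 difference -0.67, adjusted p = 0.00616). That call was lost without replicate 1 of the wild type or of the knockout spermatids (adjusted p up to 0.0526). In spermatocytes both knockout arrays were also below both wild type arrays, but the log2 difference of -0.29 did not pass (adjusted p = 0.404).

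The de novo enzymes did not move together. Dnmt3b, a de novo methyltransferase, had signals of 207 and 235 in wild type spermatocytes, 166 and 168 in knockout spermatocytes, 55.7 and 40.2 in wild type spermatids and 35.4 and 44 in knockout spermatids, a 4.67-fold fall in wild type and a 4.23-fold fall in the knockout. Dnmt3a, the other de novo methyltransferase, read 65.7 and 59 in wild type spermatocytes, 55.1 and 67.9 in knockout spermatocytes, 135 and 138 in wild type spermatids and 323 and 273 in knockout spermatids. The spermatocyte arrays of both genotypes overlapped at a low signal, wild type spermatids were higher, and knockout spermatids were higher still with no overlap. The rise between the stages was 2.19-fold in wild type and 4.85-fold in the knockout, and knockout spermatids exceeded wild type spermatids 2.18-fold (log2 difference 1.12, standard error 0.14, adjusted p = 0.00112). The median over the probe sets of a gene, here and below, is that of their log2 values on each array, not of their differences, with the fit repeated. For the 5 probe sets of Dnmt3a it gave a stage difference of 0.00 on the log2 scale in wild type (adjusted p = 0.994) and 0.71 in the knockout, where it was still called. Of the 5, 3 were called higher in knockout spermatids, by log2 differences of 0.56 to 1.12. The Sertoli cell markers named above rose on the same arrays, and their part in the Dnmt3a rise was not tested. Dnmt3l, a cofactor of the de novo enzymes without catalytic activity, had signals of 51 and 44.4 in wild type spermatocytes, 42.4 and 46.5 in knockout spermatocytes, 689 and 834 in wild type spermatids and 371 and 364 in knockout spermatids. It overlapped between genotypes in spermatocytes and rose 15.9-fold in wild type spermatids but 8.28-fold in knockout spermatids. Knockout spermatids were 2.06-fold below wild type spermatids (log2 difference -1.04, standard error 0.13, adjusted p = 0.00123). Dnmt3a and Dnmt3l thus moved in opposite directions in knockout spermatids, with interaction estimates on the log2 scale of 1.15 (adjusted p = 0.0168) and -0.94 (adjusted p = 0.0275). The interaction of Dnmt3a was lost when any of 4 single arrays was left out (replicate 1 of the knockout spermatocytes, either wild type spermatid array or replicate 1 of the knockout spermatids, adjusted p up to 0.0788). That of Dnmt3l was lost without any of 6 arrays, all but replicate 1 of the wild type spermatocytes and replicate 1 of the wild type spermatids (adjusted p up to 0.0945), and with cyclic loess (-0.82, adjusted p = 0.0564), equal medians (-0.72, adjusted p = 0.0608) and quantile normalization (-0.68, adjusted p = 0.0762). Both genes were dim in spermatocytes, so the spermatocyte side of each interaction rests on values near background.

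**Figure D3:**
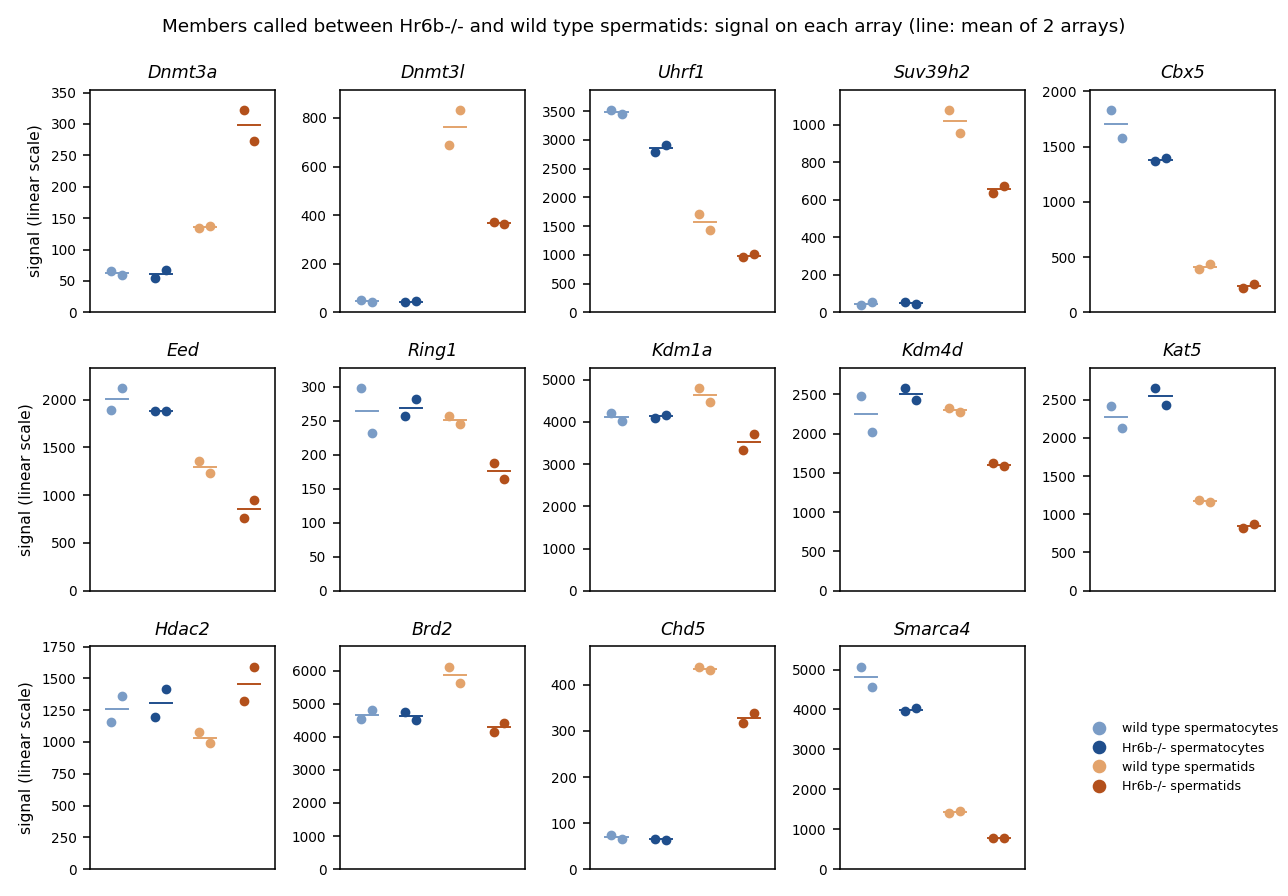
Signal on the linear scale on each of the 8 arrays for the 14 genes called between knockout and wild type spermatids; points are arrays, short lines are means of 2 arrays, and every axis starts at 0. The knockout spermatid arrays lie above both wild type spermatid arrays for Dnmt3a and Hdac2 and below them for the other 12.

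The H3K9 methyltransferase genes were all called between the stages, Suv39h2 and Ehmt2 as higher in spermatids and the others as lower. This compares with 83.1% of expressed genes called in wild type and 85.7% in the knockout. Suv39h2, which trimethylates H3K9 in pericentromeric heterochromatin and is known for its expression in testis, had signals of 37 and 55.9 in wild type spermatocytes, 52.6 and 45 in knockout spermatocytes, 1079 and 955 in wild type spermatids and 638 and 674 in knockout spermatids. It was 22.3-fold higher in wild type spermatids (log2 difference 4.48, standard error 0.18, adjusted p = 1.16e-08), and 13.5-fold higher in the knockout, both set against a spermatocyte signal near the median of all probe sets, so the size of these folds is uncertain. Knockout spermatids were 1.55-fold below wild type spermatids (log2 difference -0.63, adjusted p = 0.0457), with no overlap between the arrays, but this call was lost without any one of the 4 spermatid or 2 knockout spermatocyte arrays (adjusted p up to 0.204). Setdb1, which trimethylates H3K9 at retroelements and other targets, read 1441 and 1476 in wild type spermatocytes, 1585 and 1586 in knockout spermatocytes, 433 and 407 in wild type spermatids and 350.4 and 389 in knockout spermatids. Spermatids lay below spermatocytes on every array, 3.48-fold lower in wild type and 4.3-fold lower in the knockout. The call in wild type was lost with the median over its probe sets (log2 difference -0.52, adjusted p = 0.115), and both calls were lost when probe sets ending in _s_at, _x_at or _a_at, which can match several transcripts, were left out (-0.52 and -0.65, adjusted p = 0.132 and 0.0576). Ehmt1, one partner of the enzyme pair that dimethylates H3K9 in euchromatin, had signals of 140.5 and 156 in wild type spermatocytes, 111 and 123 in knockout spermatocytes, 65.2 and 71.7 in wild type spermatids and 68.4 and 74.3 in knockout spermatids, and fell 2.16-fold in wild type. Ehmt2, the other partner, went from 2385 ± 201 to 3659.6 ± 140.2 in wild type (log2 difference 0.62, adjusted p = 0.00151). In the knockout it went from 3126 ± 234 to 4148 ± 299, and the call in that genotype was lost without replicate 2 of the knockout spermatocytes or replicate 1 of the knockout spermatids (adjusted p up to 0.105). Trim28, the co-repressor that recruits Setdb1, fell from 9355 ± 467 to 5614 ± 194 in wild type and from 8338 ± 68 to 5189 ± 4.49 in the knockout. None of these 5 was called between genotypes in spermatocytes.

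The upstream sequence is given for 3 genes that were called in the comparisons of both stage and genotype, Suv39h2 and Chd5 as the H3K9 enzyme and the remodeller that rose, and Uhrf1 as a DNA methylation gene that fell. They are the 250 bases before the annotated start, from RefSeq on build GRCm38.p6, and capitals mark matches to the motifs searched, on either strand, among 4: the cAMP response element TGACGTCA, its short form TGACGT, the E2F-type site TTTCGCGC and the MYB site AACNGTT. The motifs shown were chosen after the matches had been seen. Suv39h2 lies at chr2:3474987-3475236 on the minus strand, Chd5 at chr4:152338401-152338650 on the plus strand (the entry of 2 that holds a match) and Uhrf1 at chr17:56304063-56304312 on the plus strand (likewise of 2).
Suv39h2: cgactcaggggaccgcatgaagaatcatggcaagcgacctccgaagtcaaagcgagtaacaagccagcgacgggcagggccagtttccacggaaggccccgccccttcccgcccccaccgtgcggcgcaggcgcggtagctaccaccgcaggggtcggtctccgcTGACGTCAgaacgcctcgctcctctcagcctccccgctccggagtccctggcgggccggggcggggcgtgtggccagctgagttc
Chd5: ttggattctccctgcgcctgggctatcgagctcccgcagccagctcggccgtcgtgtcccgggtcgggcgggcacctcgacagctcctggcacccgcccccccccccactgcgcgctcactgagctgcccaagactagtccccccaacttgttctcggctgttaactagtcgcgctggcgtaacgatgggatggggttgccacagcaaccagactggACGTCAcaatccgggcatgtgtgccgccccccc
Uhrf1: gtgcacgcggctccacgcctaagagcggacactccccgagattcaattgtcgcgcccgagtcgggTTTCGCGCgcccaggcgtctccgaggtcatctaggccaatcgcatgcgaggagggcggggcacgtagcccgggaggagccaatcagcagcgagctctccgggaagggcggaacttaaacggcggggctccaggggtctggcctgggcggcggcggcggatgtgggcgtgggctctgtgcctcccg
The full element TGACGTCA, which lies within 250 bases of the start in 1.55% of 32851 promoters, was found in 1 of the 42 members with an entry, Suv39h2, beginning 85 bases before the start. Its short form, which overlaps the full element, is in 6.47% of all promoters and in 7 members, Suv39h2, Ring1, Kdm5b, Kat5, Kat8, Chd5 and Atrx. These 7 include genes that rose and genes that fell between the stages. TTTCGCGC is in 0.256% of promoters and in 2 members, Dnmt1 and Uhrf1, both of which fell. AACNGTT is in 3.8% of promoters and in no member. The percentages count single promoter entries, whereas a member counts if any of its entries matches, and 27 of the 42 members have 1 entry. The 2 are therefore not directly comparable. A match describes only the letters in this window.

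The HP1 genes, whose products bind methylated H3K9, fell for Cbx1 and Cbx5. Cbx1 (HP1 beta) had signals of 1366 and 1581 in wild type spermatocytes, 1477 and 1574 in knockout spermatocytes, 198 and 175 in wild type spermatids and 125 and 171 in knockout spermatids. The fall was 7.88-fold in wild type and 10.4-fold in the knockout, and the difference between spermatids of the 2 genotypes did not pass (log2 -0.35, adjusted p = 0.184). Cbx5 (HP1 alpha) read 1832 and 1576 in wild type spermatocytes, 1365 and 1397 in knockout spermatocytes, 389 and 439.5 in wild type spermatids and 219.9 and 255 in knockout spermatids. It fell 4.11-fold in wild type and 5.84-fold in the knockout, and knockout spermatids were 1.75-fold below wild type spermatids without overlap (log2 difference -0.80, standard error 0.13, adjusted p = 0.00368). With the median over its probe sets the stage difference shrank to -0.15 in wild type (adjusted p = 0.356) and to -0.74 in the knockout, where the call held. Cbx3 (HP1 gamma) had 49 and 44.3 in wild type spermatocytes, 46.9 and 50.4 in knockout spermatocytes, 67.8 and 57.2 in wild type spermatids and 77.9 and 85.3 in knockout spermatids on the only probe set annotated to it alone, below 100 on all arrays. Its small rise was called in wild type (log2 difference 0.42, adjusted p = 0.0187), though not without replicate 2 of the wild type spermatocytes or replicate 1 of the wild type spermatids (adjusted p up to 0.138), and in the knockout (0.74). Another 4 probe sets are annotated to Cbx3 together with the pseudogene Cbx3-ps5. The brightest read 1387 and 1503 in wild type spermatocytes, 1414 and 1556 in knockout spermatocytes, 1388 and 1249.8 in wild type spermatids and 811 and 883 in knockout spermatids. It was called lower in spermatids in the knockout (log2 difference -0.81, adjusted p = 0.000184) but not in wild type (-0.13). Knockout spermatids were called below wild type spermatids on it (-0.64, adjusted p = 0.00732). Among the dimmer ones, falls in the knockout (-0.65 and -0.81) and a rise in wild type (0.63) were called. Both the level and the direction of Cbx3 itself are therefore uncertain.

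All 4 members of Polycomb repressive complex 2, which methylates H3K27, were called lower in spermatids in both genotypes. Of expressed genes, 45.7% were called lower in wild type and 50.4% in the knockout. Ezh1, one of its alternative catalytic subunits, had signals of 747 and 833 in wild type spermatocytes, 1031 and 1066 in knockout spermatocytes, 197 and 157 in wild type spermatids and 178 and 205 in knockout spermatids. The fall was 4.49-fold in wild type and 5.49-fold in the knockout on this probe set, whereas the median over its 4 probe sets, 3 of which are dim, gave log2 differences of 0.04 in wild type and -0.06 in the knockout. Suz12, a core subunit, read 1106 and 1385 in wild type spermatocytes, 1189 and 1203 in knockout spermatocytes, 473 and 420.0 in wild type spermatids and 323 and 411 in knockout spermatids, 2.78-fold lower in wild type spermatids than spermatocytes. Eed, the subunit that binds the methylated product, had 1892 and 2119.8 in wild type spermatocytes, 1878 and 1877 in knockout spermatocytes, 1353 and 1231 in wild type spermatids and 762 and 945 in knockout spermatids. It fell 1.55-fold in wild type (not called with cyclic loess, log2 difference -0.29, adjusted p = 0.0832) and 2.21-fold in the knockout, and its signal in knockout spermatids was 1.52-fold below that in wild type spermatids (log2 difference -0.60, adjusted p = 0.0154), a call lost without replicate 1 of either spermatid group (adjusted p up to 0.113). Ezh2, the other catalytic subunit, went from 3427 ± 279 to 2605 ± 164 in wild type, a log2 difference of -0.39 (adjusted p = 0.0172) that did not pass without replicate 2 of either wild type group (adjusted p up to 0.105). In the knockout it went from 3959 ± 9.19 to 2345 ± 154 (log2 difference -0.76). With cyclic loess the differences of Ezh2 were -0.13 and -0.24, and with equal medians -0.08 and -0.22, not called in either genotype.

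Of the 4 members of Polycomb repressive complex 1, which ubiquitylates histone H2A, Rnf2 fell furthest. Rnf2 (RING1B), the main ubiquitin ligase of the complex, had signals of 3270.4 and 4467 in wild type spermatocytes, 3515 and 4145 in knockout spermatocytes, 99.3 and 118 in wild type spermatids and 119 and 151 in knockout spermatids. The fall was 35.3-fold in wild type (log2 difference -5.14, standard error 0.18, adjusted p = 5.18e-09) and 28.5-fold in the knockout on its brightest probe set, but the median over its probe sets gave log2 differences of -0.37 and -0.03, the latter not called. Its paralogue Ring1 read 298 and 232 in wild type spermatocytes, 257 and 282 in knockout spermatocytes, 257 and 245 in wild type spermatids and 188 and 165 in knockout spermatids. Wild type spermatids lay within the range of the wild type spermatocytes (log2 difference -0.07, adjusted p = 0.712), and knockout spermatids were 1.42-fold lower than wild type spermatids (log2 difference -0.51, adjusted p = 0.0403). This call was lost without any one of the spermatid or knockout spermatocyte arrays (adjusted p up to 0.176), and the called fall between the stages in the knockout (log2 -0.61) turned to 0.00501 with cyclic loess. Bmi1, a partner that stimulates the ligase, had 1883 and 2555 in wild type spermatocytes, 2081 and 2298 in knockout spermatocytes, 2590.0 and 2195 in wild type spermatids and 2197 and 2280.4 in knockout spermatids, so all 4 groups overlapped and nothing was called on this probe set, although a dimmer one was called higher in spermatids of both genotypes (log2 differences of 1.23 and 0.95). Cbx2, a subunit that reads methylated H3K27, had 78.4 and 63.3 in wild type spermatocytes, 58.9 and 54.1 in knockout spermatocytes, 88.6 and 103 in wild type spermatids and 92.2 and 89.8 in knockout spermatids, and its rise was called in wild type (log2 difference 0.44, adjusted p = 0.0214, lost without replicate 2 of either wild type group, adjusted p up to 0.159) and in the knockout (0.69).

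The methyltransferases of active or recombining chromatin gave smaller rises. Dot1l, the H3K79 methyltransferase, had signals of 1197 and 833 in wild type spermatocytes, 908 and 900.2 in knockout spermatocytes, 1819 and 1797 in wild type spermatids and 1390.0 and 1273 in knockout spermatids, a 1.81-fold rise in wild type. Knockout spermatids were below wild type spermatids without overlap, but the log2 difference of -0.44 did not pass (adjusted p = 0.0989), and the rise in the knockout (1.47-fold) was lost without replicate 2 of the knockout spermatocytes or replicate 1 of the knockout spermatids (adjusted p up to 0.0706). Prdm9, which marks recombination hotspots with methylated H3K4 early in meiosis, had 49.8 and 47.7 in wild type spermatocytes, 44.9 and 49.6 in knockout spermatocytes, 61.6 and 61.2 in wild type spermatids and 61.3 and 70.4 in knockout spermatids, below 100 on every array. Its log2 difference of 0.33 in wild type (adjusted p = 0.037) was lost without any one of 6 arrays, all but the knockout spermatid arrays (adjusted p up to 0.131), and that of 0.48 in the knockout without replicate 1 of the knockout spermatocytes (adjusted p = 0.0532).

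The 6 histone demethylases split between the stages. Kdm3a, an H3K9 demethylase known to be needed for protamine gene expression, had signals of 7280.5 and 8071 in wild type spermatocytes, 8685 and 8269 in knockout spermatocytes, 3841 and 3547 in wild type spermatids and 2851 and 3170.4 in knockout spermatids. It was 2.08-fold lower in spermatids than in spermatocytes in wild type and 2.82-fold lower in the knockout. Kdm5b, an H3K4 demethylase, read 4398 and 5738 in wild type spermatocytes, 5361 and 5023 in knockout spermatocytes, 2976 and 2966 in wild type spermatids and 2577 and 2756 in knockout spermatids, and fell 1.69-fold in wild type. Kdm6b, an H3K27 demethylase, had 131 and 185 in wild type spermatocytes, 199 and 196 in knockout spermatocytes, 381 and 508 in wild type spermatids and 469 and 605 in knockout spermatids, a 2.82-fold rise in wild type and a 2.7-fold rise in the knockout. Its X-linked relative Kdm6a was below 100 on all arrays and went from 42.5 ± 0.97 to 64.7 ± 0.951 in wild type (log2 difference 0.61) and from 33 ± 4.5 to 80.2 ± 6.66 in the knockout (1.29). Kdm1a (LSD1), which demethylates H3K4, read 4205 and 4021 in wild type spermatocytes, 4092 and 4170.4 in knockout spermatocytes, 4797 and 4482 in wild type spermatids and 3335 and 3713 in knockout spermatids. Neither stage comparison of Kdm1a was called, while knockout spermatids were 1.32-fold below wild type spermatids (log2 difference -0.40, adjusted p = 0.0433). Kdm4d, an H3K9 demethylase expressed in testis, had 2483 and 2016 in wild type spermatocytes, 2576 and 2422 in knockout spermatocytes, 2321 and 2269 in wild type spermatids and 1626 and 1581 in knockout spermatids. Its wild type stages overlapped, and knockout spermatids were 1.43-fold below wild type spermatids (log2 difference -0.52, adjusted p = 0.0234). Leaving out any one spermatid array lost the spermatid calls of Kdm1a and Kdm4d (adjusted p up to 0.212 and 0.107), and leaving out either knockout spermatocyte array lost that of Kdm1a too.

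Among the acetyltransferases, Kat5 fell and Crebbp rose between the stages. Kat5 (TIP60), which acetylates histones H4 and H2A, had signals of 2418 and 2125 in wild type spermatocytes, 2649 and 2434 in knockout spermatocytes, 1184 and 1162 in wild type spermatids and 823 and 869.8 in knockout spermatids. The fall was 1.93-fold in wild type and 3.0-fold in the knockout, and knockout spermatids were 1.39-fold below wild type spermatids (log2 difference -0.47, adjusted p = 0.0252, lost without any one spermatid array, adjusted p up to 0.13). Crebbp, a co-activator that acetylates H3, read 464 and 479 in wild type spermatocytes, 477 and 441 in knockout spermatocytes, 942 and 870.3 in wild type spermatids and 723 and 757 in knockout spermatids, 1.92-fold higher in wild type spermatids on this probe set. The fit of the median log2 level over its probe sets gave -0.86 in wild type and -0.81 in the knockout. Most of its single probe sets nevertheless rose between the wild type stages, as given below. Its paralogue Ep300 had 287 and 253 in wild type spermatocytes, 273 and 279 in knockout spermatocytes, 245 and 232 in wild type spermatids and 162 and 201 in knockout spermatids. Ep300 was not called in wild type (log2 difference -0.18), and its fall in the knockout (-0.61, adjusted p = 0.00239) turned to 0.00517 with cyclic loess. Kat8 (MOF), which acetylates H4, had 2469 ± 1.3, 2559.7 ± 114, 2396 ± 44 and 2524 ± 139 in wild type and knockout spermatocytes and wild type and knockout spermatids, and no comparison called it.

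The deacetylases showed falls of Sirt1, Hdac6 and Hdac3. Sirt1, an NAD-dependent deacetylase, had signals of 1917 and 2205 in wild type spermatocytes, 2190.2 and 2335 in knockout spermatocytes, 223 and 197 in wild type spermatids and 172 and 221 in knockout spermatids. No spermatid array came near a spermatocyte array, the difference being 9.8-fold lower in wild type and 11.6-fold lower in the knockout. Hdac6, an X-linked gene for a mainly cytoplasmic deacetylase of tubulin, read 284 and 294 in wild type spermatocytes, 180.5 and 231 in knockout spermatocytes, 80.8 and 70.6 in wild type spermatids and 73.1 and 85.5 in knockout spermatids. In spermatocytes both knockout arrays lay below both wild type arrays, with a log2 difference of -0.50 that did not pass (adjusted p = 0.176), and the stages differed 3.83-fold in wild type. Hdac3, the catalytic subunit of nuclear co-repressor complexes, had 1221 and 1361 in wild type spermatocytes, 1192 and 1241 in knockout spermatocytes, 464 and 438 in wild type spermatids and 338 and 375 in knockout spermatids, a 2.86-fold fall in wild type. Hdac2, a class I deacetylase, read 1158 and 1364 in wild type spermatocytes, 1198 and 1412 in knockout spermatocytes, 1078 and 990.5 in wild type spermatids and 1323 and 1592 in knockout spermatids. Besides Dnmt3a it was the member called higher in knockout than in wild type spermatids, 1.4-fold (log2 difference 0.49, adjusted p = 0.0496), and the call was lost without any one of the spermatid or knockout spermatocyte arrays (adjusted p up to 0.223). The part of the Sertoli cell markers in this rise was not tested. Hdac1, its partner, had 2594 ± 37.7 in wild type spermatocytes, 2819.7 ± 243 in wild type spermatids and 2341 ± 118 in knockout spermatids and was not called.

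Of the 2 BET genes, Brd2 was called and Brdt was not on the probe sets described. With the median over its probe sets Brdt was called higher in wild type spermatids than spermatocytes (log2 difference 0.36, adjusted p = 0.00773). With equal medians it was called higher in spermatids of both genotypes (0.29 in wild type and 0.39 in the knockout). Brdt, the testis-specific BET protein that reads acetylated histones in spermatids, had signals of 6892 and 7404 in wild type spermatocytes, 7243 and 6873 in knockout spermatocytes, 7149 and 6903 in wild type spermatids and 6318 and 6416 in knockout spermatids, and no comparison called it on this probe set. Brd2, a more widely expressed relative, read 4546 and 4800.0 in wild type spermatocytes, 4763 and 4503 in knockout spermatocytes, 6124 and 5620.5 in wild type spermatids and 4151 and 4418 in knockout spermatids. Wild type spermatids were above all other arrays: the rise between the stages in wild type was 1.26-fold (log2 difference 0.33, adjusted p = 0.0318, lost without either wild type spermatocyte array or replicate 1 of the wild type spermatids, adjusted p up to 0.156). Knockout spermatids were 1.37-fold below wild type spermatids (log2 difference -0.45, adjusted p = 0.025), a call lost without any one spermatid array (adjusted p up to 0.138).

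Chromatin remodelling genes held both directions. Chd5, a remodeller known to be needed for the exchange of histones for protamines, had signals of 73.5 and 65.4 in wild type spermatocytes, 66.4 and 62.6 in knockout spermatocytes, 439.6 and 431 in wild type spermatids and 317 and 339 in knockout spermatids. It rose 6.28-fold in wild type and 5.09-fold in the knockout, and knockout spermatids were 1.33-fold below wild type spermatids (log2 difference -0.41, adjusted p = 0.041), a call lost without any one of the spermatid or knockout spermatocyte arrays (adjusted p up to 0.186). Smarca4 (BRG1), the motor of SWI/SNF complexes, read 5073 and 4569 in wild type spermatocytes, 3956 and 4034 in knockout spermatocytes, 1417 and 1451 in wild type spermatids and 777 and 780.0 in knockout spermatids. The signal fell 3.36-fold between the stages in wild type and 5.13-fold in the knockout. Knockout spermatids were 1.84-fold below wild type spermatids, with replicates close together (log2 difference -0.88, standard error 0.11, adjusted p = 0.00114), and a second Smarca4 probe set gave -0.95. The interaction estimate of -0.61 on the log2 scale did not pass (adjusted p = 0.0555). Smarca5 (SNF2H), an ISWI motor, had 4471 and 4763 in wild type spermatocytes, 5082 and 4925 in knockout spermatocytes, 3821 and 3188 in wild type spermatids and 2568 and 3091 in knockout spermatids, a 1.78-fold fall in the knockout and a 1.32-fold fall in wild type that was lost without either wild type spermatocyte array or replicate 2 of the wild type spermatids (adjusted p up to 0.197). Chd4, the motor of the NuRD deacetylase complex, had 623 ± 80.7 and 553 ± 50 in wild type and 658 ± 0.477 and 491 ± 91.3 in the knockout. Its called fall in the knockout (log2 difference -0.44, adjusted p = 0.0304) became 0.26 with cyclic loess, 0.02 with quantile normalization and 0.10 with equal medians, and was lost without either knockout spermatocyte array or replicate 2 of the knockout spermatids (adjusted p up to 0.224). Atrx, an X-linked remodeller of heterochromatin, was below 100 on all arrays, with 29.4 ± 4.61 in wild type spermatocytes and 38.5 ± 5.6 in wild type spermatids. Its called rises depended on single arrays, being lost without 6 of the 8 in wild type (all but replicate 1 of the wild type spermatocytes and of the wild type spermatids, adjusted p up to 0.275) and without either knockout spermatocyte array or replicate 2 of the knockout spermatids in the knockout (adjusted p up to 0.0723).

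**Figure D4:**
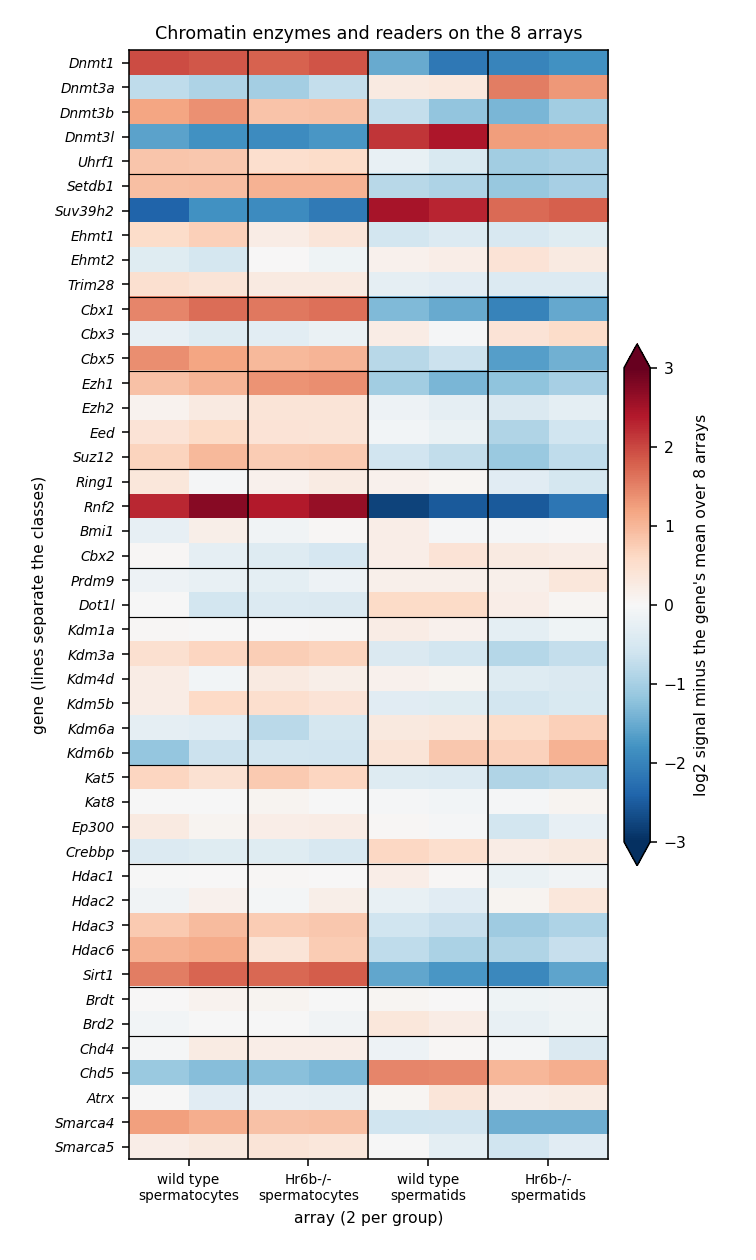
Log2 signal of each of the 45 genes on the 8 arrays, minus the gene's mean over the arrays (red above, blue below, scale limited to ±3); rows are genes with lines between classes, columns are arrays grouped by genotype and stage. The division between the 4 spermatocyte and the 4 spermatid columns is visible for Dnmt1, Dnmt3l, Suv39h2, Rnf2, Sirt1 and Chd5, and the genotypes separate within spermatids for Dnmt3a and Smarca4.

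Signals were high enough to measure for most members: 40 of 45 reached 100 on at least 4 arrays and 32 on all 8. Cbx3, Prdm9, Kdm6a and Atrx stayed below 100 on every array and Cbx2 on all but 1, and 7 genes reached 100 on 4 arrays exactly, Dnmt3a, Dnmt3l, Suv39h2 and Chd5 in spermatids and Dnmt3b, Ehmt1 and Hdac6 in spermatocytes. Some stage calls depended on the scaling or the probe set beyond those given above. With equal medians those of Ehmt1 (log2 difference -0.18), Trim28 (-0.15), Kdm4d (-0.10) and Smarca5 (-0.29) were lost in the knockout and that of Smarca5 (-0.09) in wild type. With cyclic loess those of Kdm4d (-0.08) and Prdm9 in the knockout and of Smarca5 (-0.17), Cbx3 and Prdm9 in wild type were lost. Those of Atrx were lost in both genotypes with cyclic loess, with quantile normalization and with the median over probe sets. Over all alternatives its log2 difference went down to 0.02 in wild type and 0.07 in the knockout. With the median over probe sets, or without the suffixed ones, that of Kdm6a (0.16 and 0.29) was lost in wild type. Leaving out the suffixed ones also lost that of Kdm6a in the knockout (0.20) and that of Brd2 in wild type (0.16), the latter being lost with quantile normalization too (0.29). The members with several probe sets did not always give 1 answer. Of the 30 such genes, 5 had probe sets called in both directions between the wild type stages, Atrx, Brdt, Crebbp, Ezh1 and Rnf2. For Rnf2 the 2 brightest probe sets fell, with log2 differences of -5.14 and -5.24, while 2 dimmer ones rose by 1.05 and 0.79, from 110.2 ± 29.4 to 225 ± 3.28 on the former. For Crebbp 1 probe set fell (log2 difference -2.12) where the other 3 rose. Smarca5 gave -0.40 on the probe set described above but -4.06 on another, with signals of 1161 ± 188 and 69 ± 3.08. Between genotypes, no member had probe sets called in opposite directions. In spermatids, a probe set other than the one described was called for Chd4, Crebbp, Dnmt1 and Suz12, among them 2 of Chd4 (log2 differences of -0.67 and -0.48) and 1 of Dnmt1 (0.41, at 60.2 ± 5.99 against 45.3 ± 0.00627).

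**Figure D5:**
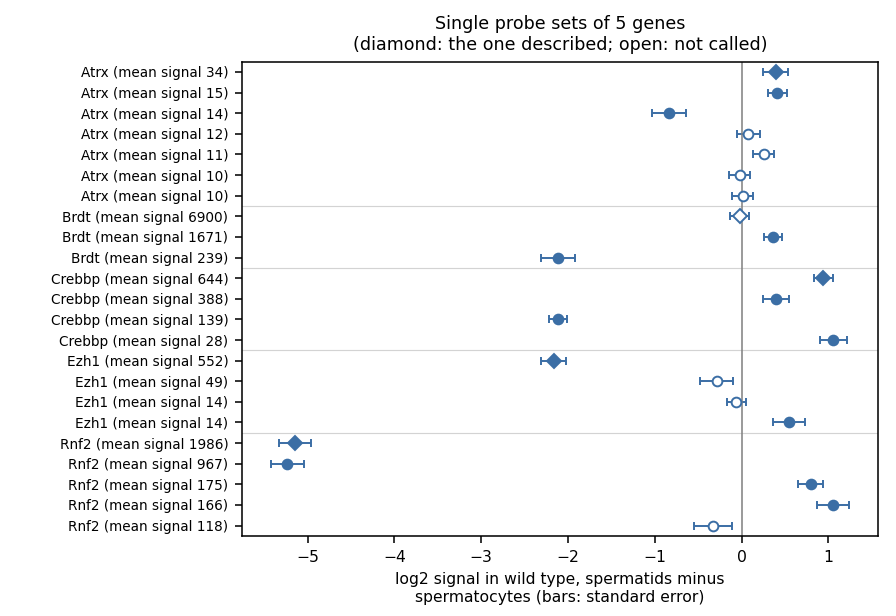
Log2 difference between wild type spermatids and wild type spermatocytes for each probe set of the 5 genes with probe sets called in both directions, in order of mean signal within a gene; bars are standard errors, diamonds are the probe sets described in the text and open points were not called. For Rnf2 the 2 brightest lie near -5 and 2 dimmer ones near 1.

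Other chromatin genes, listed by function, were also mostly lower in spermatids. Of 174 measured, 43 were higher and 97 lower in wild type spermatids than spermatocytes, and 46 and 102 in the knockout. These 80.5% and 85.1% were near the 83.1% and 85.7% of expressed genes. The largest rises in wild type were those of Cdyl, a testis-expressed chromodomain gene (log2 difference 5.52), the acetyltransferase gene Kat2b (3.35) and Hdac5 (3.16). The largest falls were those of Aebp2, a cofactor of Polycomb repressive complex 2 (-4.37), Mbd1, which binds methylated DNA (-4.27), and the H3K4 methyltransferase gene Kmt2d (-4.07). In the knockout, Cdyl, Hdac5 and Hdac11 rose most (4.83, 3.02 and 2.88), and Atad2b, Kmt2d and Aebp2 fell most (-4.64, -4.12 and -4.07). In knockout spermatocytes 1 of 174 was called (0.575%, against 4.41% of expressed genes), Cdyl, with 236 ± 28.4 against 99.9 ± 15.8 in wild type (log2 difference 1.25, adjusted p = 0.00306). The spermatid markers were higher on the same arrays, and their part in this was not tested.

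In knockout spermatids 5 of the 174 were higher and 35 lower than in wild type, 23% against 28.4% of expressed genes, of which 7.29% were higher and 21.1% lower. The shares of the classes are read against the same background. Some classes hold subunits of the complexes beside the enzymes. Examples are Trrap, Epc1 and Ing3 for the acetyltransferases, Wdr5 and Ash2l for the lysine methyltransferases and Sin3a and Rcor1 for the deacetylases. The class of other acetyltransferases gave 1 higher and 9 lower of 19, that of other lysine methyltransferases 0 and 7 of 25, other demethylases 0 and 6 of 18, bromodomain genes 0 and 5 of 20, and other remodelling genes 3 and 4 of 33. Other Polycomb genes gave 0 and 2 of 25, other deacetylases 0 and 1 of 17, other DNA methylation genes 0 and 1 of 8, and arginine methyltransferases 1 and 0 of 9. The largest rises were those of the remodeller gene Chd7 (log2 difference 0.88), the arginine methyltransferase gene Prmt6 (0.82) and Smarcd3 (0.65). The largest falls were those of Baz2b, a bromodomain gene (-1.38), Kat2b (-1.34) and Trdmt1, an RNA methyltransferase gene of the Dnmt family (-1.31). The interaction was called for 14 of the 174 (8.05%, against 9.36% of expressed genes), 3 higher and 11 lower, among them Scml2, a Polycomb-related gene on the X chromosome (0.95), and Kat2b (-1.42).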

How the data were processed

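RNA of the 8 samples was hybridised to Affymetrix mouse expression arrays. The authors background-corrected, normalized and summarized the probe intensities with RMA and deposited log2 values per probe set, 45101 in all, which were used as deposited. RMA gives the arrays a like distribution, so a value is relative to the total RNA of its sample, and the number of arrays limits the precision. No scanner files were used here.

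Probe sets were named from the platform annotation held in GEO: 34945 had 1 gene, 932 several and 9160 none, and 64 controls were left out. A mean for each of the 4 groups was fitted to all 8 arrays and 45037 probe sets with limma 3.58.1 in R 4.3.3, with empirical Bayes moderation (4 residual and 5.85 prior degrees of freedom). The methods of the study also name linear models and empirical Bayes in limma, but not the groups of the fit. The counts differ: here 717 probe sets were called between genotypes in spermatocytes, where the study reports 1 gene besides Hr6b. In spermatids 6514 were called, fewer than the study reports. Tests were two-sided, adjusted by Benjamini-Hochberg over all probe sets and called at an adjusted p under 0.05. No exact permutation p of 2 arrays against 2 can be under 0.333. The study describes replicate experiments on batches of cells but not how many mice an array stands for, and the p-values reflect the spread among these arrays alone. The script was tested on simulated data.

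The members, the other gene lists and the marker lists were chosen with earlier results of these data known. Values on every array are given for members called between genotypes or in the interaction and, in each class, for the 3 with the largest absolute difference between wild type stages. Of the other chromatin genes, those named are the 3 largest called rises and falls of a comparison. Same-numbered replicates of different groups did not deviate together (r between -0.130 and 0.138 over probe sets), so they were not paired. Alternatives were another normalization, filter, variance model, choice of probe set, threshold and set of arrays. Promoter sequences came from RefSeq. The expression of Suv39h1 was not analysed here, but its promoter was among those of the 42 members searched for motifs.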

Additional observations from a re-analysis of the deposited data

Results flagged for a closer look

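For 2 genes, the effect of the knockout in spermatids differed from that in spermatocytes by the interaction test. For Dnmt3a the knockout minus wild type log2 difference was 1.12 in spermatids and -0.03 in spermatocytes, an interaction of 1.15 (standard error 0.20, adjusted p = 0.0168 from limma), and both knockout spermatid arrays were above both wild type ones. A second probe set of Dnmt3a gave 1.28 (adjusted p = 0.0113) and another 0.71 (adjusted p = 0.0408). For Dnmt3l the differences were -1.04 and -0.10, an interaction of -0.94 (standard error 0.19, adjusted p = 0.0275 from limma), with both knockout spermatid arrays below both wild type ones. In spermatocytes Dnmt3l had signals of 47.7 ± 4.65 in wild type and 44.4 ± 2.9 in the knockout (mean ± SD, n = 2 arrays). Both genes were near background in spermatocytes and reached a signal of 100 only in spermatids, so an effect of the knockout in spermatocytes could hardly have been seen, and the difference between the cell types rests on that dim side.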

How the results depend on the processing

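The call counts of members between the stages stayed within 1.5 times those reported under all alternatives. They were 28 to 39 in wild type (35 reported) and 33 to 39 in the knockout (38 reported). Of these calls, 21 and 21 held under every alternative. Between knockout and wild type spermatids, 14 members were called as reported, 6 with cyclic loess, 7 with quantile normalization, 9 with equal medians of expressed probe sets, 9 without both knockout spermatocyte arrays, 5 at an adjusted p under 0.01, and 4 to 15 with 1 array left out. The spermatid count was 16 among expressed probe sets and 15 with the median over the probe sets of a gene. In spermatocytes the count was 0, and 1 with an intensity trend in the empirical Bayes step. For the interaction, 2 were called as reported, 1 with cyclic loess or with quantile normalization, 5 among expressed probe sets, 8 with the intensity trend, 6 with the median over the probe sets of a gene, 0 at an adjusted p under 0.01, and 0 to 3 with 1 array left out. The cause was not tested, beyond the smaller number of arrays or probe sets that some alternatives use. Equal medians also moved the median log2 difference of all probe sets from 0.02 to 0.21 between the genotypes in spermatids.

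The log2 differences that reversed were, between the knockout stages, those of Ring1 (0.00501) and Ep300 (0.00517) with cyclic loess, of Chd4 with cyclic loess (0.26), quantile normalization (0.0168) and equal medians (0.10), and of Crebbp with the median over probe sets (-0.81), and in wild type those of Ezh1 (0.0385) and Crebbp (-0.86) with that median.

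With the replicate number as a block, 34, 38, 0, 11 and 2 members were called in the 5 comparisons (stages in wild type, stages in knockout, knockout in spermatocytes, knockout in spermatids and interaction). Since same-numbered wild type spermatid arrays deviated against those of the wild type spermatocytes (r = -0.130) and knockout spermatids (r = -0.101), the crossed pairing was also run and gave 35, 38, 0, 14 and 2. It and the fit without the knockout spermatocyte arrays were chosen after seeing the data. Signal near background limits Cbx3, Cbx2, Prdm9, Kdm6a and Atrx, and Dnmt3a, Dnmt3l, Suv39h2 and Chd5 in spermatocytes.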
